A study of Mus musculus with 72 samples.

Results

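The collagen genes of the mouse were measured in liver and lung 48 h after whole body X-rays. They were taken as every gene whose symbol reads Col, a number, a and a number, found through the RefSeq transcript that each probe of the array is named by. The rule gave 44 genes and 70 probes among 56605 probes, of which 34566 could be given a RefSeq symbol. More than 1 probe was present for 23 of the genes, and each gene is described below by its representative probe, the brightest over all arrays among those tested, unless a probe is named. Probes of 38 genes could be tested in liver and of 42 in lung, through 49 and 57 probes. The representative probe could be tested for 36 genes in liver and 41 in lung, and 2 genes, Col28a1 and Col6a6, rose above background on no array. The animals were female C57BL/6 J mice of 6 to 8 weeks. Each of 6 groups held 3 numbered samples of each organ, called mice here by those numbers, though the labels do not say that liver and lung of a number came from 1 animal. The mice received a single surface dose at 1.05 Gy/min: 1, 2, 4, 8 Gy or a highest dose of 12 Gy, or none (0 Gy), and the 0 Gy mice were sham irradiated in the same kind of container. Snap-frozen liver and lung gave 1 mRNA array per sample, 36 mRNA arrays in all, and the labels give no other treatment or allele. Levels are log2 intensities after normalization and serve to compare arrays for a probe, not probes with each other.

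Collagens are the trimeric proteins that give the extracellular matrix its strength. The fibrillar types I, III and V form the banded fibers of the interstitium, and the fibril-associated collagens (FACIT) bind to their surface. Type VI makes beaded filaments around cells, type IV makes the sheet-like network of basement membranes, and the multiplexins XV and XVIII sit between basement membrane and interstitium. In liver the interstitial collagens come mainly from hepatic stellate cells and portal fibroblasts, and in lung from fibroblasts, smooth muscle and endothelium. Their accumulation months after irradiation is known as radiation fibrosis, whereas the arrays here show an early time.

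Promoter windows of collagens that the results below turn on are shown so that a reader can see how unlike they are. They run from 250 bases before to 50 bases after the annotated start, come from RefSeq on build GRCm38.p6, and carry in capitals any copy, on either strand, of the TATA box TATAAA, of the CCAAT box or of the GC box GGGCGG. Col1a2 lies on the plus strand at chr6:4505618-4541543 with its window at chr6:4505368-4505667, and Col3a1 on the plus strand at chr1:45311538-45349706 with its window at chr1:45311288-45311587. Col4a1 (minus strand, chr8:11198423-11312889) and Col4a2 (plus strand, chr8:11312805-11449287) lie on opposite strands and overlap where they begin. The starts used for their windows, 11312826 and 11312805, are 21 bases apart. The windows, chr8:11312777-11313076 and chr8:11312555-11312854, share 78 bases.
Col1a2: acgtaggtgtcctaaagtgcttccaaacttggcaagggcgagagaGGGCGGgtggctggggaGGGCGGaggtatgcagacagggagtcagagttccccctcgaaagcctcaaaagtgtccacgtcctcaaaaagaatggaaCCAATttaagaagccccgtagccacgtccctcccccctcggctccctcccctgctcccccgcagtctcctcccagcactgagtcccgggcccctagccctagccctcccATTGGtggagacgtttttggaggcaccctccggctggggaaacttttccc
Col3a1: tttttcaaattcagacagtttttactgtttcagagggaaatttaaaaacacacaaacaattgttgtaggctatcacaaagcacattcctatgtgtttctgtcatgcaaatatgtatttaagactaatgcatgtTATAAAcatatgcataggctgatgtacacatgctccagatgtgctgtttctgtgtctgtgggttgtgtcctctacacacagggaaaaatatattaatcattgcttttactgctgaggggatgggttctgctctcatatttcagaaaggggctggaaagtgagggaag
Col4a1: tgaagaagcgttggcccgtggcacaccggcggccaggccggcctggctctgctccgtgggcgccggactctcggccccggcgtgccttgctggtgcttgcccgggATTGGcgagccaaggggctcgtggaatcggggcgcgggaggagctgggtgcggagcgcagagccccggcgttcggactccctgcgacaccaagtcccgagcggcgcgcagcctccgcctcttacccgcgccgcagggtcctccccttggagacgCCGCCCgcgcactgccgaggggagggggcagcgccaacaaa
Col4a2: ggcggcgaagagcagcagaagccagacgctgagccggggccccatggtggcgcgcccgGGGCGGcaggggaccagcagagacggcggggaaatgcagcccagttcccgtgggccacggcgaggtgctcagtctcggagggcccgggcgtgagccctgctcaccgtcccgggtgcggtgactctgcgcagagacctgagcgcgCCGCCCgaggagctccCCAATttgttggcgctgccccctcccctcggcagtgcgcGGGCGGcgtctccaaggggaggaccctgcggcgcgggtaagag
The Col1a2 window holds CCAAT and GGGCGG at 2 places each and no TATAAA, the Col3a1 window holds a single TATAAA and neither of the others, and the Col4a1 and Col4a2 windows hold CCAAT once each and GGGCGG at 1 and 3 places. Of 32851 promoters of this length, 13.6% hold TATAAA, 37.4% CCAAT and 35.7% GGGCGG, and of the 38 collagen promoters found, 5, 13 and 23 do. These are letter matches and no measure of binding.

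Well above background were 46.1% to 54.0% of spots in liver and 54.1% to 64.0% in lung, and none was saturated. Dose ran along with the glass slide that held the arrays. In liver, slide 1 held the 0 and 1 Gy mice and 2 Gy mice 3 and 13. Slide 2 held 2 Gy mouse 23, the 4 and 8 Gy mice and 12 Gy mouse 6, and slide 3 held 12 Gy mice 16 and 26. In lung, slide 3 held the 0 and 1 Gy mice, slide 4 the 2 and 4 Gy mice and 8 Gy mice 5 and 15, and slide 5 held 8 Gy mouse 25 and the 12 Gy mice. The 4 lung arrays of slide 5 had 54.1% to 54.8% of spots above background, below every other lung array (59.2% to 64.0%), and that of 12 Gy mouse 16 had 1578 outlier spots where no other mRNA array exceeded 600. Values with slide as a term, within 1 slide or without slide 5 are therefore given beside the main collagen results on dose. The tissue labels held against defining genes: in unirradiated mice the lung minus liver log2 difference was -8.77 for albumin (Alb) and 10.81 for surfactant protein C (Sftpc).

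The collagen mRNA levels of the unirradiated organs were compared first. The 0 Gy livers lay on slide 1 and the 0 Gy lungs on slide 3, so that organ ran along with slide. This comparison was not fitted with slide as a term. With 36 arrays normalized together, 28 of the 42 collagen genes that could be compared passed (limma, adjusted p under 0.05), 23 of them higher in lung and 5 higher in liver. Over 2-fold differences were met by 23 genes, 21 higher in lung and 2 higher in liver, where 34.8% of all 47376 probes met the same rule and 18% met it with lung higher. The median lung minus liver difference of the collagens was 1.14 on the log2 scale.

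Lung was above liver for the interstitial collagens. Col1a1 and Col1a2, the chains of type I collagen, were 12.7-fold and 7.72-fold higher in lung (log2 difference 3.67 ± 0.25 and 2.95 ± 0.16, SE, n = 3 and 3, limma adjusted p = 3.39e-13 and 1.52e-15). Col3a1, the type III chain of reticular fibers, was 5.44-fold higher, and Col5a1, a type V chain that sets fibril width, 2.48-fold. Its partner chain Col5a2 was well above background on 3 of 3 lung and 0 of 3 liver arrays, so that lung was at least 5.39-fold higher. The type VI chains Col6a1, Col6a2 and Col6a3 differed by 3.52, 2.67 and 2.99 on the log2 scale.

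Most basement membrane chains were higher in lung too. Col4a1 and Col4a2, which form the type IV network of nearly all basement membranes, were 10.7-fold and 8.71-fold higher in lung. Among the chains of more restricted membranes, such as those of the alveolus, Col4a4 differed by 5.28 ± 0.44 and Col4a5 by 3.82 ± 0.25 on the log2 scale, and Col4a6 was not well above background in liver and at least 32.3-fold higher in lung. Col4a3 had a log2 difference of 0.85 and did not pass (adjusted p = 0.0826). Over all doses its probe was well above background on 17 lung arrays and 1 liver array, so that its liver level lay near background. Of the transmembrane collagens, Col23a1 was at least 29.2-fold and Col17a1, a part of hemidesmosomes, at least 7.91-fold higher in lung.

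Of the 5 genes that passed with liver higher, 2 differed by over 2-fold. Col26a1 was among the 5 on its representative probe. Its other probes, A_51_P435380 and A_55_P2098120, were each well above background on 18 lung and 0 liver arrays over all doses. Col18a1, whose C-terminal fragment is endostatin and which hepatocytes are known to make, read 15.2 in liver against 10.2 in lung, a log2 difference of -4.99 ± 0.18 or 31.8-fold (adjusted p = 1.60e-19). Col14a1, a FACIT of fibril surfaces, was 2.79-fold higher in liver (log2 difference -1.48 ± 0.24, adjusted p = 5.57e-06). Col9a3 and Col19a1 were well above background on 0 of 3 arrays in both organs and did not pass.

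**Figure D1:**
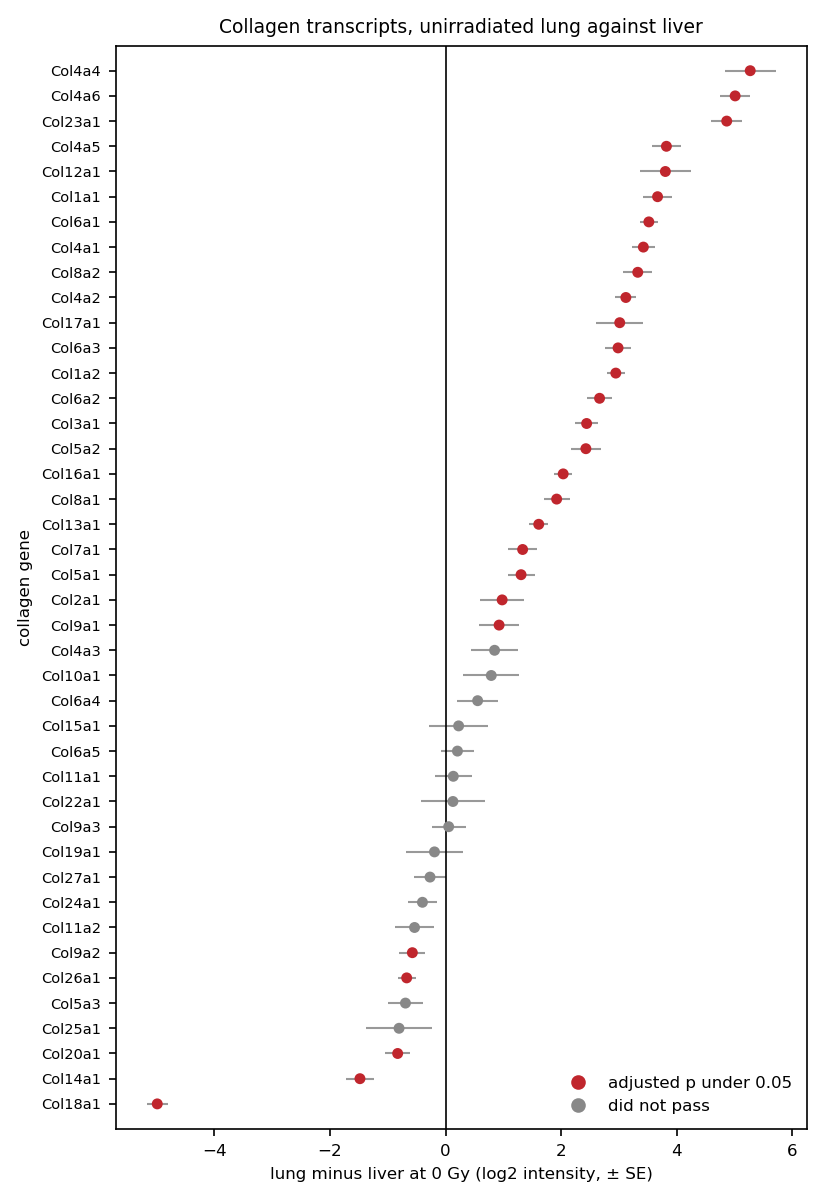
Each point is the lung minus liver difference of a collagen gene in unirradiated mice, in log2 intensity with its standard error (n = 3 mice per organ), and red points passed at an adjusted p under 0.05. Col1a1, Col1a2, Col4a1, Col4a2 and Col6a1 lie between 2.95 and 3.67 on the lung side, while Col18a1 lies at -4.99.

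In liver Col1a2, Col3a1, Col5a1, Col14a1 and Col6a3 were lower at 12 Gy. At that dose 5 of 36 collagen genes (13.9%) passed, all lower than at 0 Gy, where 7.01% of all 38362 probes passed, 4.1% lower and 2.91% higher. The dose trend, a linear slope given as the log2 change over 12 Gy, passed for 5 of 36, again all lower, against 9.51% of all probes (5.47% lower and 4.04% higher). At 8 Gy 4 genes passed (9.9% of probes) and at 4 Gy 1 gene (3.31%), all lower. At 1 and 2 Gy no gene passed in limma, where 0.0417% and 0.461% of probes did. An unadjusted p under 0.05 was met by 2 and 3 of 36 collagen genes and by 2716 and 4528 of 38362 probes. The median change of the 36 genes was -0.12, -0.13, -0.13, -0.20 and -0.14 from 1 to 12 Gy on the log2 scale, against medians of all probes of 0.01, -0.00, 0.01, 0.00 and 0.01. No collagen gene reached a 2-fold change and an adjusted p under 0.05 together. Where mice of a dose are said below to lie apart from all controls, this describes values that entered the tests and adds no support. From 1 to 12 Gy 3, 4, 14, 12 and 11 of 36 collagen genes lay apart and lower. Those apart and higher were 2, 0, 1, 2 and 1. The share over all probes was not counted, so that these counts cannot be read as a result about the collagens. With slide as a term no collagen gene passed at any dose or in the trend, and 325 of all probes did at 12 Gy and 108 in the trend, so that dose and slide cannot be told apart for these genes. In whole organs, fewer cells of a type and less RNA per cell cannot be told apart either.

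Col1a2, the second chain of type I collagen, was the gene that passed at 3 doses. Its log2 intensity was 11.83, 11.87 and 11.96 at 0 Gy and 11.56, 11.88 and 11.34 at 1 Gy. It was 11.86, 11.49 and 11.39 at 2 Gy and 11.35, 11.16 and 11.35 at 4 Gy. All mice of 4, 8 (11.39, 11.36, 11.32) and 12 Gy (11.30, 11.18, 11.01) lay below all unirradiated mice. The log2 change was -0.60 ± 0.15 at 4 Gy, -0.53 ± 0.15 at 8 Gy and -0.72 ± 0.15 at 12 Gy (SE, n = 3 and 3, limma adjusted p = 0.0394, 0.0347 and 0.00785), the last a 1.65-fold decrease, and the trend was -0.58 (adjusted p = 0.0101). Within slide 2, whose 8 arrays span 2 to 12 Gy, its slope was 0.00 over 12 Gy, and with slide as a term the 12 Gy change was -0.30 (adjusted p = 0.738).

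Col3a1, the partner of type I in reticular fibers, had the largest fall of the representative probes that passed at 12 Gy. Levels at 0 Gy were 12.85, 13.14 and 13.37 (mean 13.12 ± 0.26, SD, n = 3) and at 12 Gy 12.49, 12.04 and 11.87 (12.13 ± 0.32). The 4 Gy (12.71, 12.45, 12.43) and 8 Gy mice (12.55, 12.37, 12.75) also lay below all controls, while 1 Gy mouse 12 at 13.36 was level with the highest. The 12 Gy change was -0.99 ± 0.21 (adjusted p = 0.0111) and the trend -0.86 (adjusted p = 0.00322). With slide as a term the trend was -0.26 (adjusted p = 0.785), and the slope within slide 2 was -0.17.

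Col5a1 had a larger slope within slide 2 than the other 4 genes that passed at 12 Gy, a difference that was not tested. It read 8.09, 8.45 and 8.27 at 0 Gy, at most 7.78 at 8 Gy and 7.42, 7.49 and 7.58 at 12 Gy, with no overlap between either dose and the controls. The change was -0.77 ± 0.18 at 12 Gy (adjusted p = 0.0169) and -0.60 ± 0.18 at 8 Gy (adjusted p = 0.0480), and the trend -0.74 (adjusted p = 0.00272). With slide as a term the trend was -0.53 (adjusted p = 0.441), and within slide 2 the slope was -0.50, which did not pass (adjusted p = 0.427). Its partner Col5a2 was well above background on no liver array and was not tested.

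Col14a1, which is bound to fibril surfaces, and Col6a3, the long chain of type VI, completed the genes that passed at 12 Gy. Col14a1 fell from 8.09, 7.87 and 8.24 to 7.04, 7.36 and 7.19, a change of -0.87 ± 0.21 (adjusted p = 0.0216), with a trend of -0.80 (adjusted p = 0.0117). Col6a3 fell from 8.76, 8.71 and 8.70 to 8.34, 8.13 and 7.87, a change of -0.61 ± 0.16 (adjusted p = 0.0277), with a trend of -0.48 (adjusted p = 0.0267). Neither set of 12 Gy mice overlapped the controls. The slopes within slide 2 were -0.17 for Col14a1 and 0.05 for Col6a3. A second Col6a3 probe, near background at 4.34 to 5.10 in the controls, had a change of 0.40 and did not pass.

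The other chain of type I, Col1a1 (chr11:94936224-94953042), was read by 3 probes that moved the same way by unequal amounts. The representative probe A_55_P2118520 had a 12 Gy change of -0.75 ± 0.25 and did not pass (adjusted p = 0.0889). Probe A_52_P525107 fell by 0.91 ± 0.25 (adjusted p = 0.0428), and A_66_P101466 by 1.56 ± 0.35 (adjusted p = 0.0135), a 2.94-fold decrease. That last probe read 8.79, 8.93 and 9.26 at 0 Gy, 7.74, 7.83 and 7.91 at 8 Gy and 7.43, 7.75 and 7.14 at 12 Gy, and was also lower at 8 Gy (-1.17, adjusted p = 0.0462) and in the trend (-1.61, adjusted p = 0.00172). On all 3 probes every 12 Gy mouse lay below every control. The 12 Gy calls of the liver rested on few mice: 2 collagen genes passed without 0 Gy mouse 21 or without 12 Gy mouse 26, and 3 without 0 Gy mouse 1, 0 Gy mouse 11 or 12 Gy mouse 6.

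**Figure D2:**
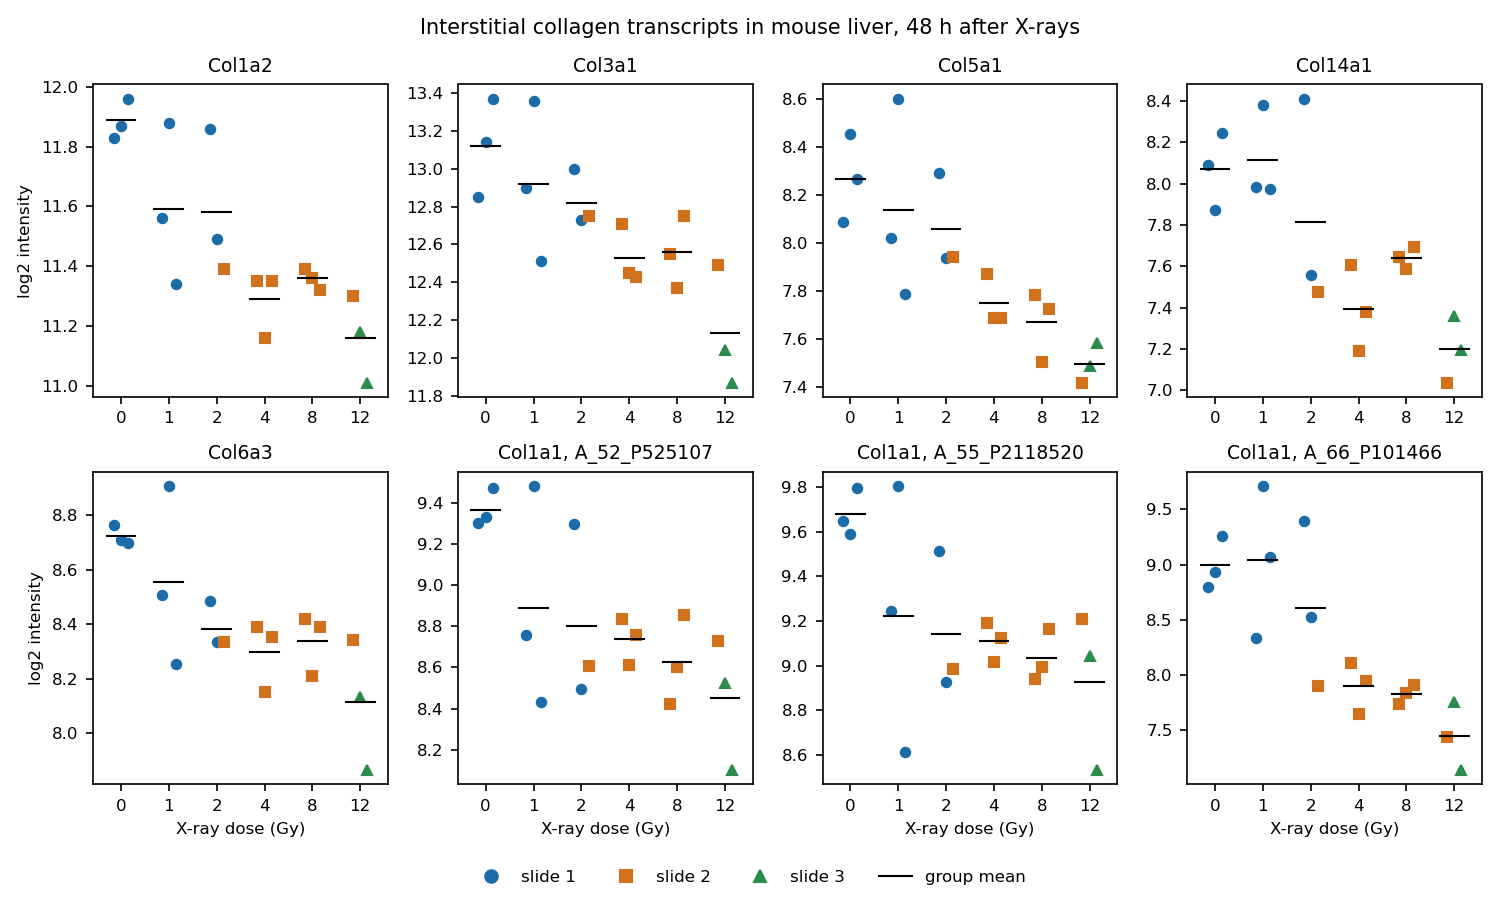
Log2 intensity in liver (vertical axis) against dose in Gy (horizontal axis, evenly spaced) for Col1a2, Col3a1, Col5a1, Col14a1, Col6a3 and the 3 Col1a1 probes, with 1 point per mouse, colour and shape for the slide, and a line at each group mean. The 12 Gy points lie below the 0 Gy points in every panel, and the slide 2 points of Col1a2 lie between 11.16 and 11.39 from 2 to 12 Gy.

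Basement membrane, multiplexin and most type VI genes did not pass in liver. Col4a1 had a trend of -0.52 ± 0.18 (adjusted p = 0.0755), which passed with the scanner's processed signal (-0.59, adjusted p = 0.0265) and in the deposited matrix (-0.60), and Col4a2 of -0.36 ± 0.15 (adjusted p = 0.157). Col6a1 had a trend of -0.13, Col6a2 of 0.10 and Col18a1 of 0.18. Col18a1 stayed within 14.67 and 15.29 in all 18 livers (15.21, 14.91 and 14.87 at 0 Gy, 15.08, 15.20 and 15.09 at 12 Gy). Col15a1 was well above background on a single liver array, and its trend of 0.68 ± 0.42 is that of a probe near background. At 8 Gy alone Col8a1, a network collagen of vessel walls, was 1.56-fold lower (-0.64 ± 0.17, adjusted p = 0.0306). Col6a5 was likewise lower at that dose alone, by 1.68-fold on its measured values (adjusted p = 0.0394). It was well above background on 3 of 3 control and 0 of 3 arrays at 8 Gy. A Col23a1 probe that is not its representative was higher at 8 Gy (adjusted p = 0.0324), but it was above background on 1 of 3 arrays there and on none at 0 Gy. By class, 3 of 10 fibrillar genes, 1 of 7 FACIT genes and 1 of 5 type VI genes passed at 12 Gy. Of 5 basement membrane genes 0 passed, where 7.01% of all probes did. The median changes of these classes were -0.29, -0.20, -0.27 and -0.34. Among the basement membrane genes, Col4a3 and Col4a4 were well above background on 1 and 5 of 18 liver arrays. A difference between classes was not tested.

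**Figure D3:**
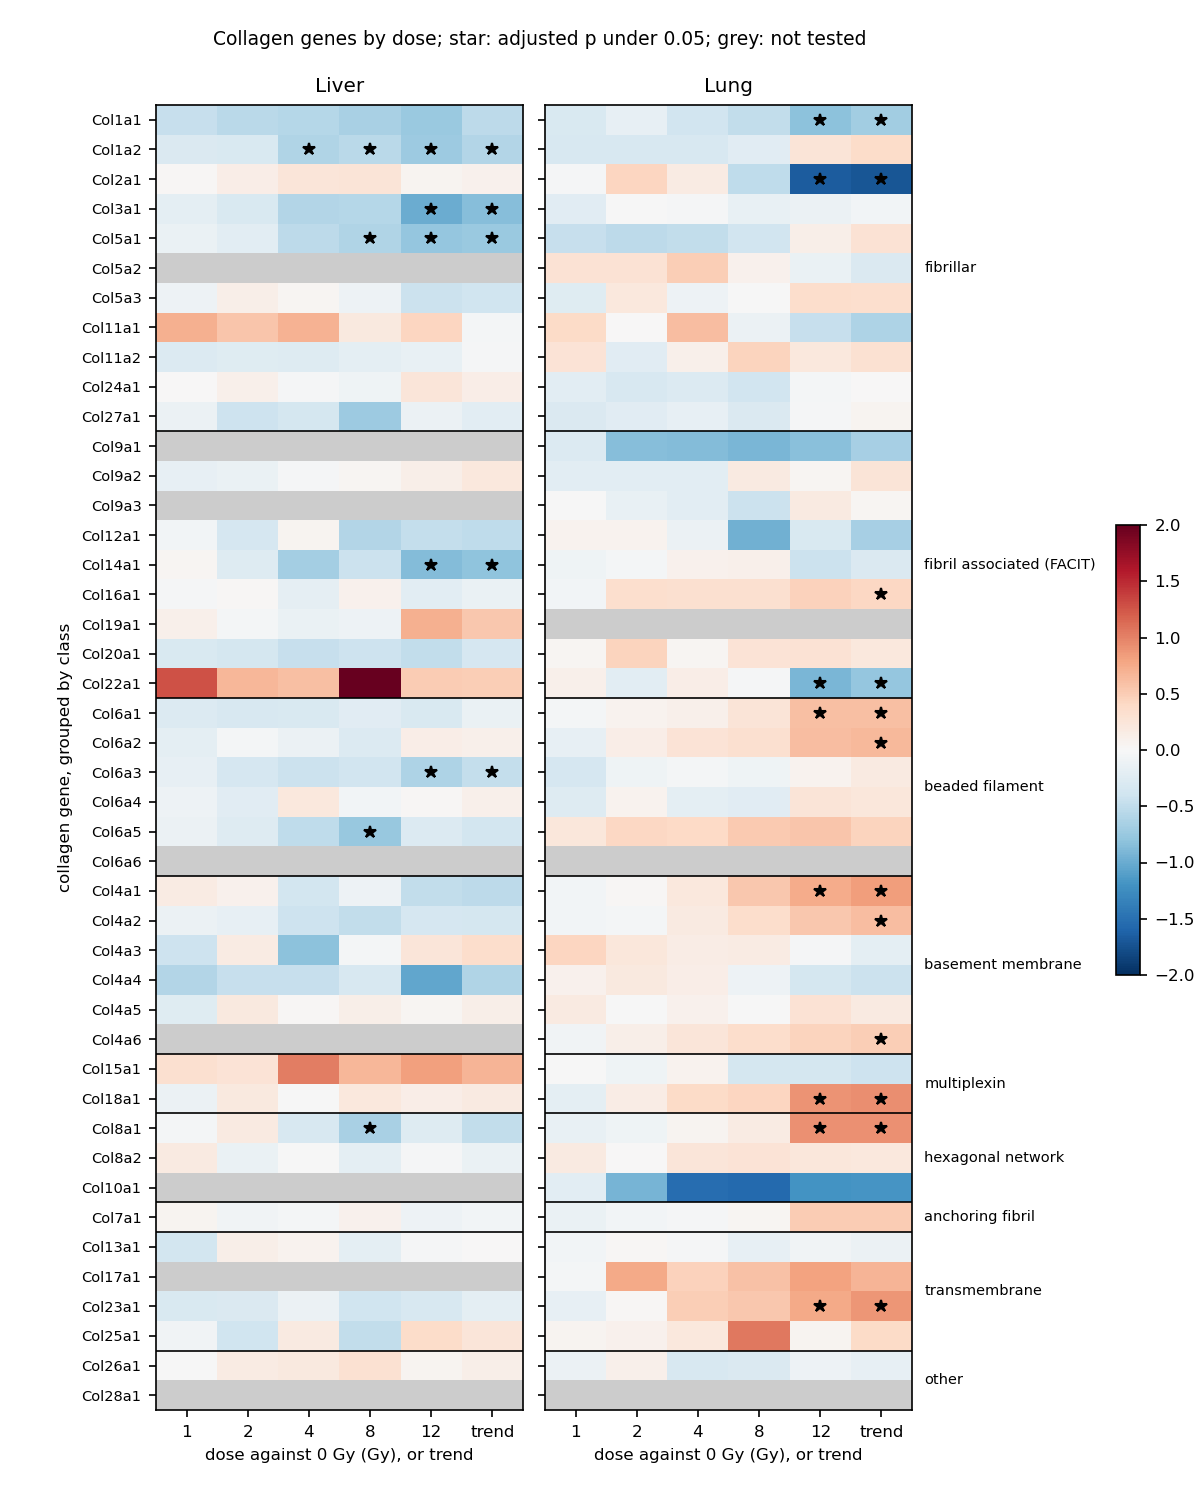
Log2 difference from 0 Gy for each collagen gene (rows, grouped by class) at each of the 5 doses and for the dose trend in liver and lung, with colours limited at 2 in either direction, stars at an adjusted p under 0.05 and grey for untested genes. Stars are lower in liver and lie at 4, 8 and 12 Gy and in the trend, whereas in lung they lie at 12 Gy and in the trend in both directions.

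In lung collagens moved both ways, at shares close to those of all probes. At 12 Gy 8 of 41 genes (19.5%) passed, 5 higher and 3 lower, where 21.4% of 43979 probes passed, 13.5% higher and 7.81% lower. The trend passed for 12 of 41 (29.3%), 9 higher and 3 lower, against 30.7% of probes, 19.7% higher and 11% lower. No collagen gene passed in limma at 1, 2, 4 or 8 Gy, where 0.025%, 0.555%, 2.18% and 4.25% of probes did. An unadjusted p under 0.05 was met by 0, 1, 3 and 6 of 41 collagen genes. Of 43979 probes (43976 at 4 Gy), 2426, 3371, 6122 and 7204 met it. The median change of the 41 genes was 0.11 at 12 Gy and 0.21 in the trend, beside 0.09 and 0.08 over all probes. Scaling by the 75th percentile moved the median of all probes at 12 Gy to 0.25 and in the trend to 0.23, and in liver at 8 Gy from 0.00 to 0.13. Of the 12 lung genes that passed in the trend, none passed without the 4 arrays of slide 5, which include every 12 Gy mouse, or with slide as a term, and 2334 of 43318 probes passed without slide 5.

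The basement membrane chains Col4a1, Col4a2 and Col4a6 were higher in the trend. Col4a1 read 13.86, 14.07 and 14.31 at 0 Gy, 14.36, 14.32 and 15.16 at 8 Gy and 14.66, 15.01 and 14.78 at 12 Gy. All 12 Gy mice and all 8 Gy mice lay above the controls, and the highest value of all belonged to 8 Gy mouse 25, the mouse of that dose on slide 5. The 12 Gy change was 0.74 ± 0.21, or 1.67-fold (adjusted p = 0.0238), and the trend 0.83 ± 0.16 (adjusted p = 0.000880). Col4a2, which shares its start region with Col4a1 as printed above, read 14.12, 14.23 and 14.00 at 0 Gy and 14.34, 14.89 and 14.73 at 12 Gy. It had a 12 Gy change of 0.54, which did not pass, and a trend of 0.61 ± 0.14 (adjusted p = 0.00375). Col4a6 had a trend of 0.49 ± 0.12 (adjusted p = 0.00507).

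The 8 Gy lungs lay on slides 4 and 5, with a single array on the latter, so that slide and mouse cannot be told apart there. Mouse 25 exceeded the mean of mice 5 and 15 by 0.82 for Col4a1, 0.35 for Col4a2 and 0.34 for Col4a6. Within slide 4, from 2 to 8 Gy, the slopes over 12 Gy were 0.44 for Col4a1 and 0.51 for Col4a2, and neither passed. Without slide 5 the trend of Col4a1 was 0.51 (adjusted p = 0.240). Over 41 collagen genes mouse 25 lay above both other 8 Gy mice in 19 and below both in 16, with a median difference of 0.10 beside 0.09 over all probes.

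Col18a1 and Col8a1 had the largest rises among the representative probes that passed at 12 Gy. Col18a1 read 10.85, 10.45 and 11.01 at 0 Gy, 10.96 and 11.15 in the 8 Gy mice of slide 4 and 11.76, 11.86 and 11.38 at 12 Gy, a 12 Gy change of 0.90 ± 0.19 (1.87-fold, adjusted p = 0.00464) and a trend of 0.93 (adjusted p = 0.000348). Col8a1, the network collagen of vessel walls, read 10.70, 9.79 and 10.24 at 0 Gy and 10.99, 11.48 and 11.03 at 12 Gy, a change of 0.92 ± 0.24 (adjusted p = 0.0140). Neither set of 12 Gy mice overlapped its controls. At 8 Gy mouse 25 was 0.45 above the mean of the other mice for Col18a1 and 0.58 above for Col8a1. Hepatocyte markers also differed between lung arrays. The mean level of the 12 markers had a median of 8.07 and a highest value of 8.71 in control lungs, 7.05 and 12.3 at 4 Gy and 9.20 and 9.62 at 12 Gy, with 1 of 12 markers higher and none lower at 12 Gy. The source of this signal and its part in the Col18a1 level were not tested. Without slide 5 the trends were 0.67 (adjusted p = 0.205) and 0.10 (adjusted p = 0.907).

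Col6a1, Col6a2, Col23a1 and Col16a1 were the remaining genes that rose. Col6a1 went from 15.03, 14.71 and 14.86 to 15.33, 15.56 and 15.52 at 12 Gy (0.60 ± 0.19, adjusted p = 0.0334), and its partner Col6a2 passed in the trend (0.65 ± 0.19, adjusted p = 0.0135). The transmembrane collagen Col23a1 had a 12 Gy change of 0.76 ± 0.22 (adjusted p = 0.0242), and a further probe of it passed in the trend (0.49, adjusted p = 0.0113). Its remaining probe A_51_P457557, well above background on 3 lung arrays, had a trend of -0.54 that did not pass. The FACIT Col16a1 had a trend of 0.42 ± 0.15 (adjusted p = 0.0405). In contrast Col6a3, the long chain of type VI, had a 12 Gy change of 0.07 ± 0.24. A second Col6a3 probe, well above background on 15 lung arrays, had a change of -0.64 that did not pass.

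Among the fibrillar genes of the lung, 2 of 11 passed and both were lower. Col2a1, the fibrillar collagen of cartilage, read 5.97, 6.98 and 7.21 at 0 Gy and 5.43 and 4.14 in 12 Gy mice 6 and 16, with mouse 26 also below every control. It was well above background on 3 of 3 control and 0 of 3 arrays at 12 Gy, which gives a decrease of at least 3.03-fold (adjusted p = 0.0402). At 8 Gy it read 6.33 and 7.47 in mice 5 and 15 and 4.83 in mouse 25, a difference of -2.07 from the mean of the other mice. Of 6 cartilage cell markers 0 were lower and 2 higher at 12 Gy, where 7.81% of all probes were lower and 13.5% higher. The mean level of these markers was 5.47 to 6.10 in control lungs and 5.94 to 6.51 at 12 Gy. The part of cartilage cells in the Col2a1 level was not tested. The FACIT Col22a1, likewise below background at 12 Gy, was at least 1.63-fold lower there (adjusted p = 0.0375), while a second Col22a1 probe had a positive trend (0.69, adjusted p = 0.0391).

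The type I and III genes of the lung were split by probe and gene. The representative Col1a1 probe was lower at 12 Gy (14.10, 13.96 and 14.01 against 13.59, 12.84 and 13.16, a change of -0.83 ± 0.23, adjusted p = 0.0191), but the other probes had changes of -0.21 and -0.26 that did not pass. Col1a2 read 15.42, 15.24 and 15.55 at 0 Gy and 15.78, 15.65 and 15.55 at 12 Gy, a change of 0.26 ± 0.20 that did not pass. Col3a1 read 15.81, 15.89 and 16.26 against 15.87, 15.91 and 15.83, a change of -0.12 ± 0.19, within the spread of the mice. Col5a1 (0.11 ± 0.25), Col5a2 (-0.13 ± 0.17), Col14a1 (-0.43 ± 0.27) and Col15a1 (-0.35 ± 0.33) did not pass either.

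Other probes of some genes passed in lung where the representative did not. Col26a1 was 1.85-fold and 1.84-fold higher at 12 Gy on a pair of probes (adjusted p = 0.0235 and 0.00872) and had a change of -0.11 on its representative. Col4a5 was 3.08-fold lower on the measured values of probe A_51_P216005 (adjusted p = 0.0127), at 5.33, 6.01 and 5.86 against 7.19 to 7.50. That probe was not well above background at 12 Gy, and the representative of Col4a5 had a 12 Gy change of 0.30. A second Col17a1 probe had a trend of 0.63 (adjusted p = 0.0272). At 8 Gy the Col4a5 probe read 7.80 and 7.57 in mice 5 and 15 and 5.90 in mouse 25. The count of collagen genes passing in lung at 12 Gy was 1 without 12 Gy mouse 16, 3 without 0 Gy mouse 11, 4 without 0 Gy mouse 21 and 13 without 0 Gy mouse 1.

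**Figure D4:**
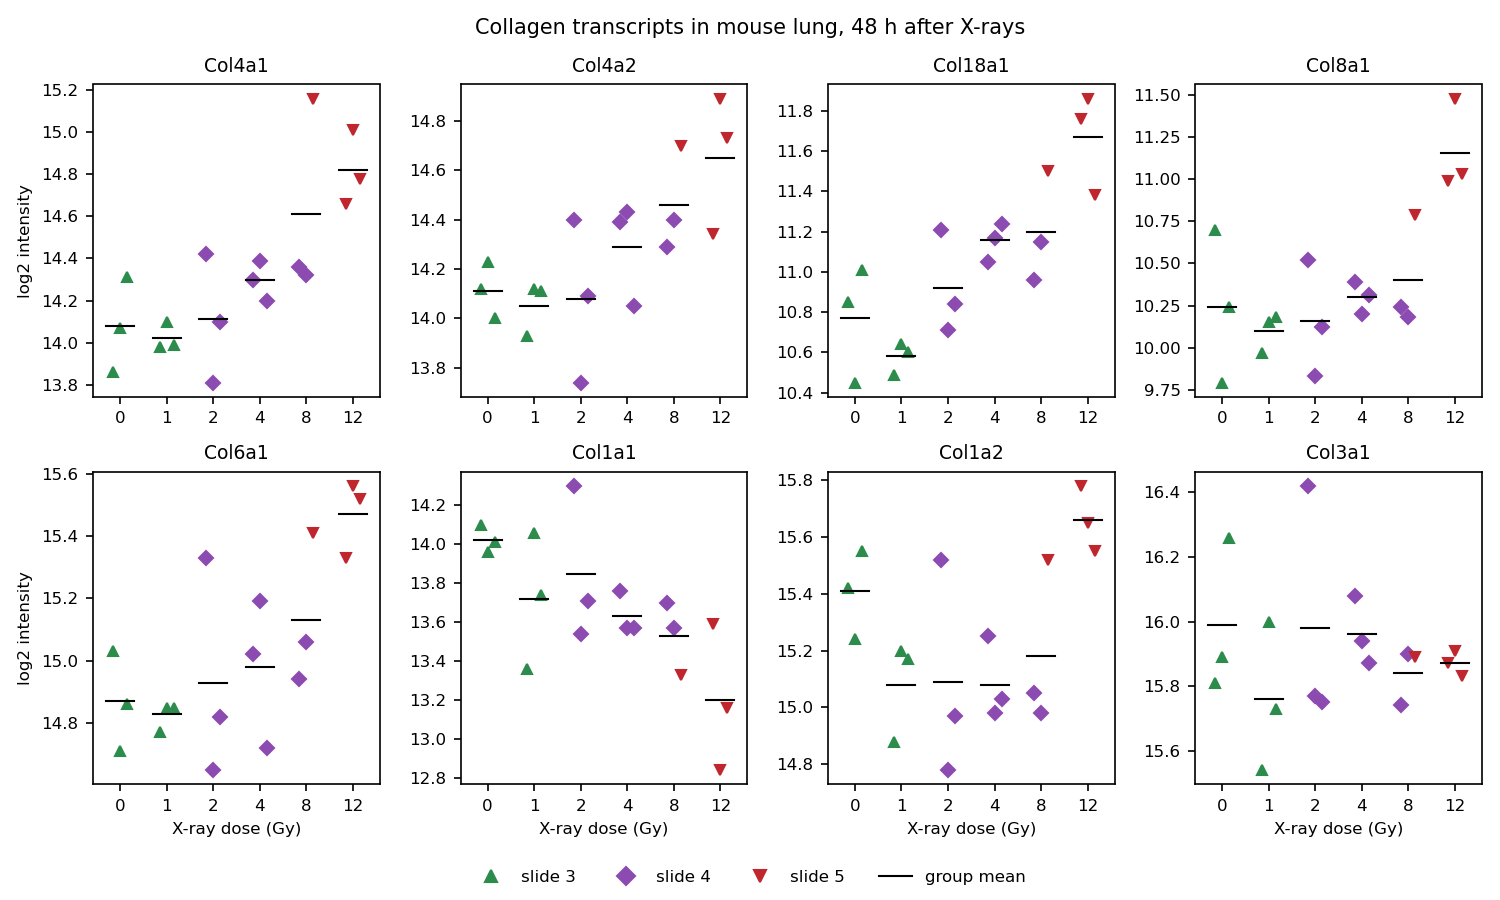
Log2 intensity in lung (vertical axis) against dose in Gy (horizontal axis, evenly spaced) for Col4a1, Col4a2, Col18a1, Col8a1, Col6a1, Col1a1, Col1a2 and Col3a1, with 1 point per mouse, colour and shape for the slide, and a line at each group mean. The single 8 Gy point of slide 5 (15.16 for Col4a1) lies above both slide 4 points of its own dose (14.36 and 14.32).

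The difference between the organs was tested as lung minus liver dose trend over 36 arrays. It passed for 12 of 42 collagen genes, 11 with lung above liver and 1 below, where 16.5% of 47376 probes passed and 11% had lung above liver. The median difference was 0.29. Col4a1 had a trend of -0.49 in liver and 0.81 in lung, a difference of 1.30 ± 0.23 (limma adjusted p = 0.000275). Col8a1 differed by 1.48 ± 0.29 (-0.49 and 1.00, adjusted p = 0.000736), and Col4a2 by 0.94 ± 0.20 (-0.33 and 0.61, adjusted p = 0.00182). Among fibrillar genes Col5a1 differed by 1.02 ± 0.30, Col1a2 by 0.85 ± 0.21 and Col3a1 by 0.67 ± 0.22 (adjusted p = 0.0161, 0.00450 and 0.0285). For Col3a1 this rested on its liver trend of -0.74, since its lung trend was -0.07. Col1a1 did not pass on its representative probe (-0.33 ± 0.28, adjusted p = 0.469) and passed on probe A_66_P101466 (1.34 ± 0.42, adjusted p = 0.0249). With slide as a term or without slide 5, 0 of 42 passed, and without the samples numbered 16 in both organs 5 did.

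**Figure D5:**
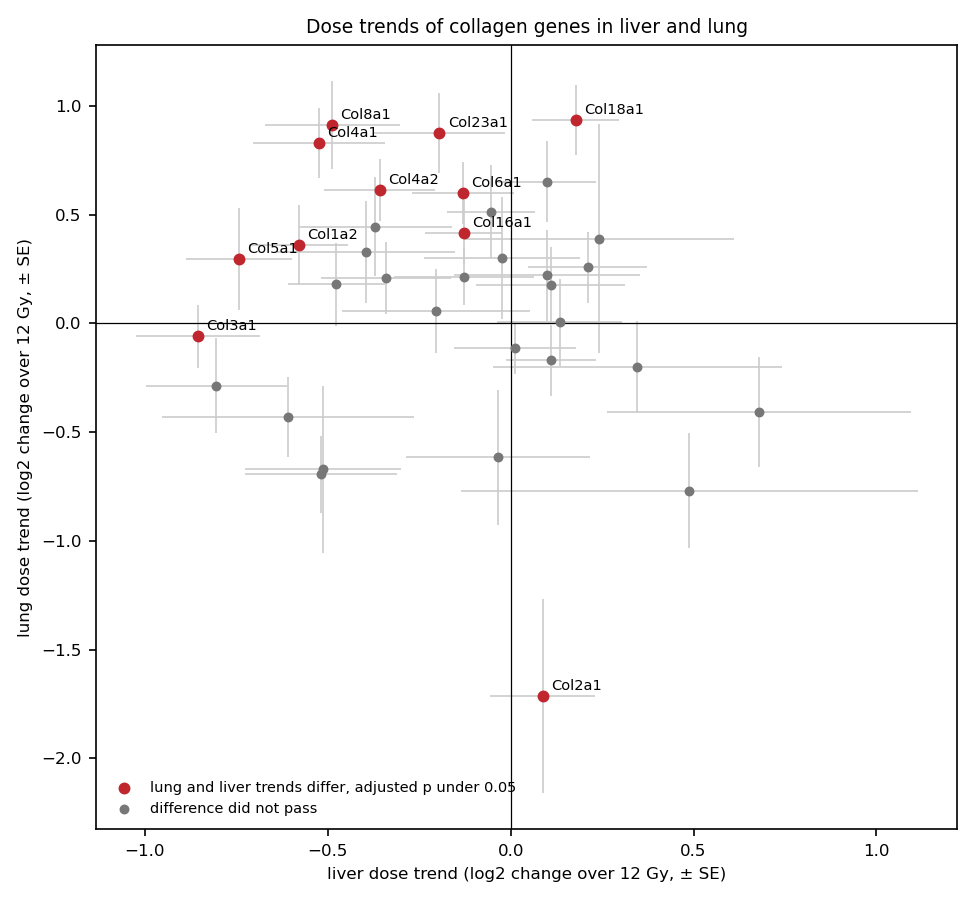
Dose trend in lung (vertical axis) against dose trend in liver (horizontal axis) for collagen genes whose representative probe was tested in both organs, as log2 change over 12 Gy with standard errors, each organ normalized on its own. Red points mark genes whose trends differed (adjusted p under 0.05), Col4a6 is not shown because it was not tested in liver alone, and of the red points only Col2a1 has a positive liver and a negative lung trend.

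Genes that build, cut and bind collagen were counted in the same way, by lists chosen for their roles, and the counts stand beside 4.1% of all probes lower and 2.91% higher in liver at 12 Gy and 7.81% lower and 13.5% higher in lung. Of the 24 folding and cross-linking enzymes tested in liver, 4 were lower and 1 higher at 12 Gy, with changes from -1.08 to 0.45. Serpinh1, the collagen chaperone HSP47, fell by 1.02 ± 0.20 (adjusted p = 0.00713), Loxl1, a lysyl oxidase, by 1.08 ± 0.24 (adjusted p = 0.0132), and Colgalt2, which adds galactose to hydroxylysine, by 0.99 ± 0.18 (adjusted p = 0.00360). Of 9 propeptide processing genes, 3 were lower and none higher, among them the enhancers of C-propeptide cleavage Pcolce (-0.86 ± 0.14, adjusted p = 0.00178) and Pcolce2 (-1.16 ± 0.17, adjusted p = 0.000963). Of 27 matrix partners, 4 were lower and none higher. Sparc, a collagen-binding glycoprotein, fell by 1.08 ± 0.18 (adjusted p = 0.00234), and Nid1, the nidogen linking laminin to type IV collagen, by 0.61 ± 0.16 (adjusted p = 0.0368). The medians of these lists were -0.22, -0.25 and -0.15.

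Regulators and degradation genes of the liver did not share one direction. Of 21 TGF beta signalling genes, 3 were lower and 1 higher, with Ltbp4, which tethers latent TGF beta to the matrix, at -1.26 ± 0.13 (adjusted p = 6.65e-05) and the matricellular factor Ccn2 at 1.72 ± 0.46 (adjusted p = 0.0337). Tgfb1 itself did not pass. Of 16 collagenases, cathepsins and inhibitors, none was lower and 1 was higher, the gelatinase Mmp2 (0.70 ± 0.16, adjusted p = 0.0152). Of 10 collagen receptors 1 was higher and none lower. The lists were not refitted with slide as a term.

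Higher genes were also the more frequent over all lung probes (13.5% against 7.81% lower), which the lung counts are to be read against. All 12 Gy lungs lay on slide 5 and all control lungs on slide 3, so that dose and slide cannot be told apart for these genes. As in liver, the lists were not refitted with slide as a term. At 12 Gy 7 of 28 matrix partners were higher and none lower, among them the laminin chains Lamb1 (0.96 ± 0.22, adjusted p = 0.00656), Lamc1 (0.95 ± 0.22, adjusted p = 0.00767) and Lama2 (0.84 ± 0.19, adjusted p = 0.00638). Of 25 folding and cross-linking enzymes 4 were higher and 1 lower, close to the shares of all probes. The lysyl oxidase Lox had a change of 0.95 ± 0.17 (adjusted p = 0.00194) and the prolyl hydroxylase P3h2 of 0.95 ± 0.15 (adjusted p = 0.000776), while Serpinh1 was lower, as in liver (-0.75 ± 0.20, adjusted p = 0.0150). Of 21 TGF beta signalling genes 5 were higher and 1, Tgfb1, lower (-0.63 ± 0.19, adjusted p = 0.0270), of 18 degradation genes 3 and 0, of 9 propeptide genes 1 and 1, and of 11 receptors 3 and 3. Ccn2 rose by 1.18 ± 0.17 (adjusted p = 0.000309), Ltbp2 by 1.24 ± 0.23 (adjusted p = 0.00211) and Timp4, an inhibitor of matrix metalloproteinases, by 1.16 ± 0.16 (adjusted p = 0.000222). Pcolce2 was lower in both organs (lung -0.85 ± 0.24, adjusted p = 0.0212).

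Cell markers were counted beside the collagens, against 4.1% of all probes lower and 2.91% higher in liver at 12 Gy and 7.81% lower and 13.5% higher in lung. In liver at 12 Gy 4 of 16 fibroblast and stellate cell markers were lower, namely smooth muscle actin Acta2 (-1.12, adjusted p = 0.0110), Tagln (-0.92, adjusted p = 0.000636), Ngfr (-1.27, adjusted p = 0.00785) and Lrat (-0.62, adjusted p = 0.0175), and Gas6 was higher (0.66, adjusted p = 0.0258). The mean log2 level of that list was 9.25 to 9.48 in the control livers and 9.06 to 9.13 at 12 Gy. Endothelial markers were lower in 3 of 15 and higher in 1, macrophage markers lower in 6 of 10 (mean level 10.6 to 10.7 at 0 Gy and 9.92 to 10.1 at 12 Gy), and 0 of 12 hepatocyte markers passed. B cell and T cell markers were lower in 4 of 7 and 4 of 8. In lung 1 of 16 fibroblast markers was lower and 4 higher (mean level 11.9 to 12.0 at 0 Gy and 12.0 to 12.2 at 12 Gy), 1 of 15 endothelial markers was lower and 1 higher, and B cell and T cell markers were lower in 7 of 8 and 8 of 8. The T cell list had a mean of 9.96 to 12.2 in control lungs and 6.53 to 7.22 at 12 Gy. The part of these markers in the collagen levels was not tested, and the marker lists were not refitted with slide as a term.

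The miR-29 family, known to repress many collagen mRNAs, was read on the 36 miRNA arrays of the same organs. The mature sequences come from RefSeq (GRCm38.p6) and are shown because the 3 members share their seed, bases 2 to 8, in capitals. They lie at chr6:31062673-31062694 on the minus strand (miR-29a-3p), at chr6:31063025-31063047 on the minus and chr1:195037091-195037113 on the plus strand (miR-29b-3p, from a pair of genes) and at chr1:195037600-195037621 on the plus strand (miR-29c-3p).
miR-29a-3p: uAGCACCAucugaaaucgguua
miR-29b-3p: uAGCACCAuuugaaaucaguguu
miR-29c-3p: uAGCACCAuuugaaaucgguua
None of the 3 passed in limma at 12 Gy or in the trend. In liver 15.1% of 192 miRNAs passed at 12 Gy and 16.1% in the trend, and in lung 18.4% of 347 and 16.4%. An unadjusted p under 0.05 was met in liver by 2 of the 3 at 12 Gy and by 1 in the trend, and in lung by 1 in each. The unadjusted share over all miRNAs was not counted, so that these counts cannot be read as a response of the family.

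Liver miR-29b-3p came nearest to the threshold in that organ. It read 10.39, 10.03 and 10.10 at 0 Gy and 10.47, 10.64 and 10.54 at 12 Gy, all above the controls, a change of 0.37 ± 0.13 (adjusted p = 0.0647) with a trend of 0.31 ± 0.11 (adjusted p = 0.0711). The trend passed without 2 Gy sample 13 (0.34) and without 12 Gy sample 6 (0.37, adjusted p = 0.0374). The miRNA fits were not repeated with slide as a term, so that a part of the slide in these values was not tested. Liver miR-29c-3p changed by 0.17 ± 0.07 (adjusted p = 0.0951) and miR-29a-3p by 0.01 ± 0.08. In lung the 12 Gy changes were -0.09 ± 0.06, -0.03 ± 0.14 and 0.18 ± 0.08 for miR-29a-3p, miR-29b-3p and miR-29c-3p. The lowest adjusted p of the family at any dose in either organ was 0.0578, for lung miR-29c-3p at 8 Gy (0.22 ± 0.08).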

How the data were processed

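Total RNA of 18 liver and 18 lung samples was hybridised to 1-colour Agilent arrays. The authors deposited, per the file headers, intensity values from Agilent Feature Extraction 11.5.1.1 for each spot, not normalized between arrays, with 0 or 1 flags for background, saturation and outliers. A deposited matrix of linear intensity, with the 75th percentile of each array near 1 and its exact scaling not given in the sources used here, served as an alternative. Median spot intensity was background corrected (normexp, offset 0), control and outlier spots were left out, arrays were quantile normalized within tissue (all 36 together for comparisons of tissues), and log2 values were averaged per probe. A probe was tested if at least 0.5 of its spots were well above background on 1 or more arrays. limma 3.58.1 (R 4.3.3, statmod 1.5.0, data.table version 1.17.8) fitted 6 dose groups, or a slope scaled to 12 Gy, with Benjamini-Hochberg adjustment over all tested probes, and a probe passed at an adjusted p under 0.05. The number of arrays limits the precision. "At least" folds are given for probes not above background in a group. Their floor is the lowest signal above background of each array or, where higher, the probe's own value. Such a fold can therefore equal the measured one, and it takes no account of the spread of the mice.

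RefSeq transcripts named 34566 probes with 1 symbol, and probes named by Ensembl transcripts were not matched. The members and lists were chosen with earlier results of these data known. Named genes were Col1a1, Col1a2, Col3a1, Col4a1, Col4a2, Col5a1, Col5a2, Col6a1, Col6a2, Col6a3, Col14a1, Col15a1 and Col18a1 whatever their values, the further collagens that passed, by trend, and other probes where they differed. The statistics were tested on simulated data. Alternatives covered background correction, scaling, filter, probe averaging, slide, sample number as a block, dose groups fitted and each mouse left out.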

Additional observations from a re-analysis of the deposited data

Results flagged for a closer look

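The dose trend of 12 of 42 collagen genes differed between lung and liver by a test of the difference itself (limma, adjusted p under 0.05). Of all 47376 probes 16.5% did so, and 11% did so with lung above liver. None of the 12 genes passed with slide as a term or without slide 5. The lung minus liver difference, in log2 change over 12 Gy, was 1.30 for Col4a1, 0.94 for Col4a2 and 0.86 for Col4a6 among basement membrane chains. It was 1.02 for Col5a1, 0.85 for Col1a2 and 0.67 for Col3a1 among fibrillar chains that had lower trends in liver, and -1.52 for Col2a1. Col8a1 differed by 1.48, Col23a1 by 1.21, Col18a1 by 0.82, Col6a1 by 0.64 and Col16a1 by 0.58. Col4a6, Col23a1 and Col2a1 were near background in liver. Dose and slide ran together in both organs and cannot be told apart, and no explanation of these differences was tested.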

How the results depend on the processing

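Dose could not be separated from slide, so the slide term decided most calls. The number of collagen genes that passed was 0 with slide as a fixed term for liver at 4, 8 and 12 Gy and in the trend, for the lung trend and for the lung minus liver trend, and these lung and difference counts were also 0 without slide 5, an alternative chosen after seeing the data. Lung at 2 to 12 Gy could not be fitted with slide fixed. With slide as a random block it was 0 in liver at 4 and 8 Gy and in lung at 12 Gy. Fitting only 0 Gy and the dose gave 2, 0 and 3 in liver at 4, 8 and 12 Gy and 0 in lung at 12 Gy. Normalizing both organs together gave 0, 2 and 3 in liver at 4, 8 and 12 Gy, no filter gave 0 at 4 and 8 Gy, the scanner's processed signal 0 at 4 Gy and averaged probes 2 at 8 Gy. Samples share only a number across organs, and the deviations of the 18 pairs correlated between -0.0618 and 0.0898, with 0 over 0.1. With that number as a replicate block the trend difference passed for 12 genes as a random block and 12 as a fixed one, and unirradiated lung and liver differed for 28 and 27, so that pairing changed no count by over 1.5 times.

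Leaving out each mouse gave 0 to 0 genes in liver at 1 and 2 Gy, 0 to 2 at 4 Gy, 0 to 4 at 8 Gy, 2 to 6 at 12 Gy and 4 to 6 in the trend. In lung it gave 0 to 0 at 1 and 2 Gy, 0 to 2 at 4 and at 8 Gy, 1 to 13 at 12 Gy and 8 to 14 in the trend, and for the trend difference 5 to 14. At 8 Gy in liver 0 passed without 0 Gy mouse 11 or 21, 1 without mouse 1, 15 or 25 and 2 without mouse 5 or 14. At 4 Gy in liver 0 passed without mouse 1, 11, 21, 4, 14, 24 or 16 and 2 without mouse 3. In lung 2 passed at 4 and at 8 Gy without 0 Gy mouse 1.

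Signs turned for values of genes as follows. With slide fixed the liver trend was 0.0727 for Col4a1, 0.0251 for Col4a2 and 0.16 for Col6a1, and the lung trend -0.13 for Col1a2, 0.16 for Col22a1, -0.37 for Col5a1 and -0.39 for Col6a3. The trend difference was then -0.0715 for Col16a1, -0.0333 for Col1a2, -0.14 for Col3a1 and -0.0349 for Col6a1. Without slide 5 the lung trend was 0.11 for Col14a1, -0.42 for Col1a2, 0.26 for Col22a1, 0.24 for Col2a1, -0.72 for Col5a1, 0.0789 for Col5a2 and -0.081 for Col6a3, and the difference 0.0846 for Col2a1 and -0.11 for Col5a1. Averaged probes gave -0.18 for Col6a2 in liver and -0.20 for Col6a3 in lung. Scaling by the 75th percentile gave lung trends of 0.0921 for Col15a1 and 0.0799 for Col3a1 and a liver trend of 0.0907 for miR-29a-3p. Leaving out a mouse gave 0.0044 for Col3a1 in lung and -0.0234 to 0.0397 for miR-29a-3p in liver. The cause was not tested. Trends that passed only under an alternative were those of Col1a1 in liver with averaged probes (-0.93) and without 1 Gy mouse 22 (-0.62), of Col4a1 in liver also without 4 Gy mouse 24 (-0.53) and without 8 Gy mouse 25 (-0.58), and of Col1a2 (0.50), Col5a2 (-0.53) and Col14a1 (-0.68) in lung in the deposited matrix. Col1a2 in lung passed with 75th percentile scaling as well (0.47).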
